A study of Mus musculus with 2 samples.

Results

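A set of 40 genes of ribosome production is described here in CT26 cells, a mouse colon cancer line, with and without knockdown of Setdb1, which encodes a histone methyltransferase. The 40 genes were listed by name for their roles in RNA polymerase I transcription and in processing and assembly of ribosomal RNA. The list was drawn up with earlier results of these data known, so shares of all genes set beside it below describe it and test nothing. All 40 were found among the 54680 loci of the deposited table. The knockdown cells (shSetdb1) had been infected with lentivirus expressing a hairpin RNA that targets Setdb1, and the control cells (shCtrl, labelled wild type) carried the lentiviral knockdown vector without it. Both were grown for 6 days in RPMI 1640 with serum, and the labels call the knockdown cells differentiated. The labels give neither the number of hairpins nor whether cells were cloned or selected. RNA sequencing gave 1 library per group, so no difference below has a replicate check and no p-value is given. In such bulk libraries, fewer cells of a type and less RNA per cell cannot be told apart.

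Ribosomes are built mainly in the nucleolus. RNA polymerase I transcribes a long precursor RNA, small nucleolar ribonucleoproteins (snoRNPs) guide its chemical modification, and large sets of assembly factors fold, cut and package it into the small and the large subunit. Growing and cancer cells run this pathway at a high rate, and the transcription factor MYC, a partner of MAX, is a known activator of many of its genes through the DNA motif called the E-box.

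Each gene is given by its level in FPKM, that is fragments relative to gene model length and sequencing depth, and by its reads. Whole reads could be recovered from the FPKM values. The log2 ratio compares (FPKM + 1), knockdown over control, and understates differences of genes at low levels. The read ratio is knockdown over control reads, each relative to its library's total of 19045830 and 18421604 reads, with a 95% exact (Clopper-Pearson) interval in parentheses that covers counting error only. A ratio of 0.5 means that the knockdown library held 50% of the control's reads. The background is the 10671 genes that reached 1 FPKM in at least 1 library.

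As a check of the labels, Setdb1 (chromosome 3) was at 10.4 FPKM in the control and 2.47 FPKM in the knockdown library, with a read ratio of 0.229 (0.202 to 0.259). Most defining markers of colon epithelium were at or near 0. Epcam and Cdh1 had 0 reads in both libraries, and 4 of 12 epithelial and colon genes reached 1 FPKM. All 4 were at least 2-fold higher in the knockdown library, against 6.81% of all genes tested. Cdh17 and Krt19 reached 1 FPKM only in that library, so for them the filter itself favoured this direction. Krt18 went from 37.7 to 90.0 FPKM, Krt20 from 5.07 to 35.6, Cdh17 from 0.251 to 1.56 and Krt19 from 0.0288 to 1.53. The genes under 1 FPKM were mixed. Control and knockdown reads were 28 and 23 for Lgals4, 3 and 1 for Muc2, 7 and 8 for Krt8. They were 1 and 7 for Vil1 and 5 and 18 for Cdx2, and Cdx1 had 0 in both. The summed level of those 12 genes was 44.1 FPKM in the control and 130 FPKM in the knockdown library. Of 10 mesenchymal genes 8 reached 1 FPKM, with a summed level of 1332 FPKM in the control and 1505 FPKM in the knockdown library. Vim and Fn1 made up most of that sum and were higher, while 5 of the 8 were lower, with a median log2 ratio of -0.28. Leukocyte genes had 24 reads in the control and 25 in the knockdown library over 7 genes, with Cd3e at 0 in both, and 5 endothelial genes had 2 reads and 1 read.

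All 40 genes were lower in the knockdown library, from 0.254 times the control reads for Utp20 to 0.882 times for Polr1e. Over all genes tested, 50% had a log2 ratio below 0. A difference of 1.5-fold or more toward lower levels was seen for 29 of the 40 (72.5%), against 14.3% of all genes tested, and of 2-fold or more for 17, against 4.85% of all genes. By the read ratio, which has no +1 and is relative to library totals, 31 of the 40 were lower by 1.5-fold or more, against 21.1% of all genes. With a pseudocount of 0.1 in place of 1, the count by log2 ratio stayed at 29. None of the 40 was 1.5-fold higher, where the share of all genes was 16.9%, or 2-fold higher (6.81% of all genes). The median log2 ratio of the 40 was -0.93, against -0.00039 for all genes. For 39 of the 40 the counting interval lay wholly below 1, against 40.6% of all genes, and for 0 of the 40 wholly above 1, against 35.2%. The exception was Polr1e. Whether an interval excludes 1 depends also on the number of reads, and no such share was taken for genes of like level. Together the 40 genes took 0.613% of the control library's reads and 0.316% of those of the knockdown library.

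The genes were well expressed. The median control level was 29.7 FPKM, above 80.9% of the genes tested, and the median knockdown level 13.3 FPKM, and all 40 stayed at 1 FPKM or more in both. Among genes at 5 FPKM or more, 14% of all genes were 1.5-fold lower, a background close to that of all genes tested, and 28 of the 36 members at that level were. Mybbp1a, Nop2 and Nhp2 had the highest control levels, at 138, 122 and 116 FPKM. Across the 40 genes, which share both libraries and are not replicates, the log2 read ratio had a Spearman correlation of 0.150 with the control level, -0.205 with gene model length and 0.134 with GC content (Pearson 0.118, -0.175 and 0.158), all weak.

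**Figure D1:**
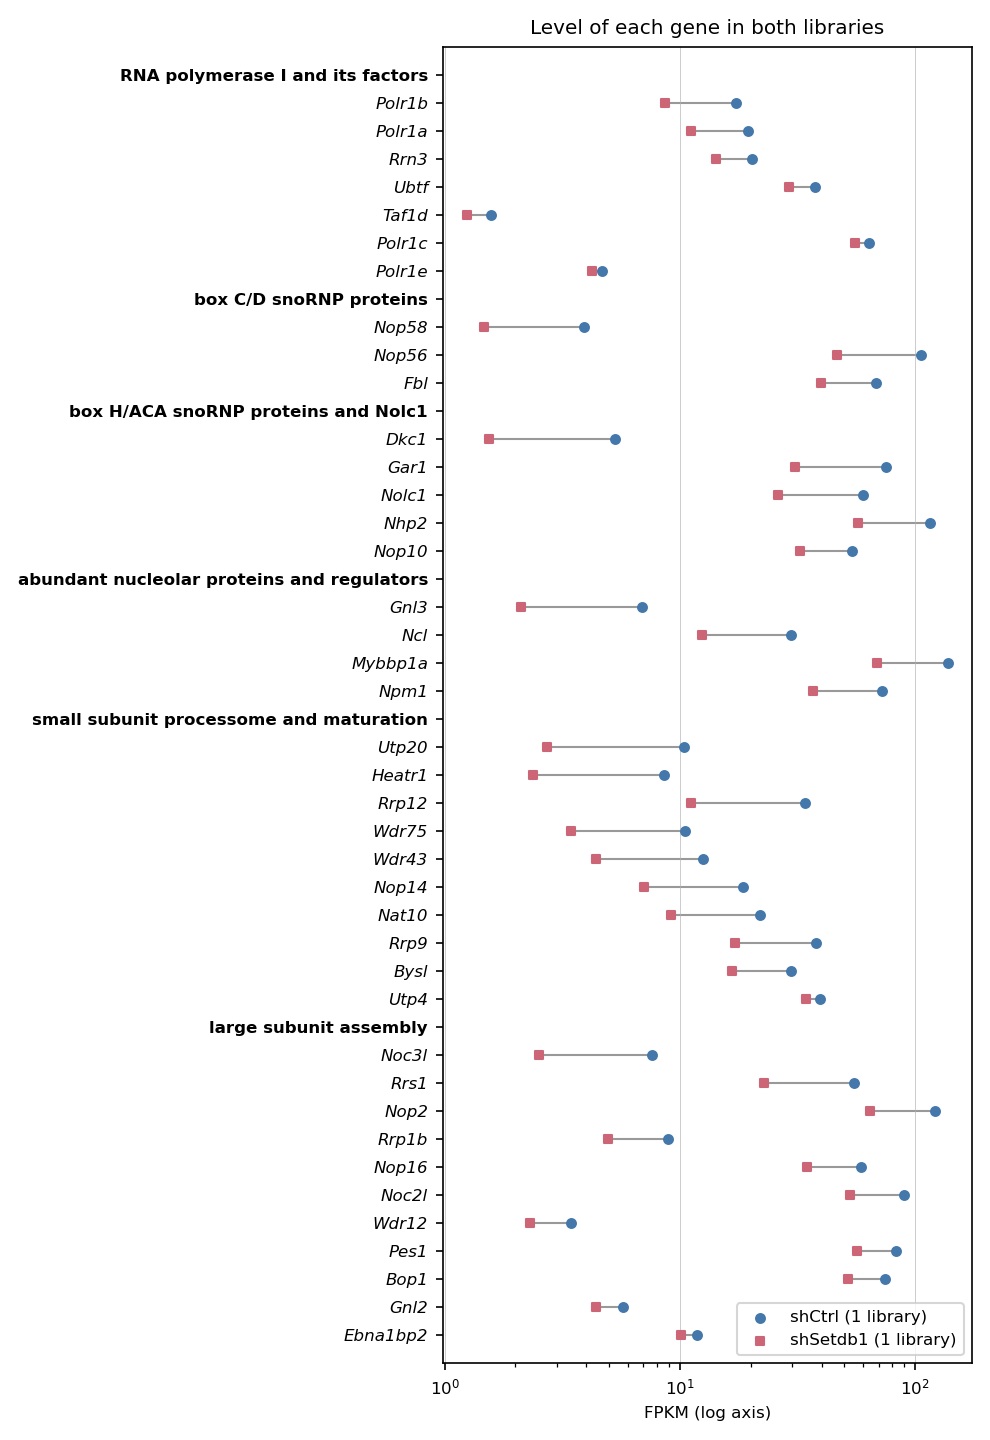
FPKM (log axis) of the 40 genes in the control library (circles) and the knockdown library (squares), 1 library each, grouped by role and ordered by read ratio. Every square lies left of its circle, with the widest gaps in the small subunit group (Utp20, 10.4 to 2.72 FPKM) and the narrowest for Polr1e (4.64 to 4.23 FPKM).

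**Figure D2:**
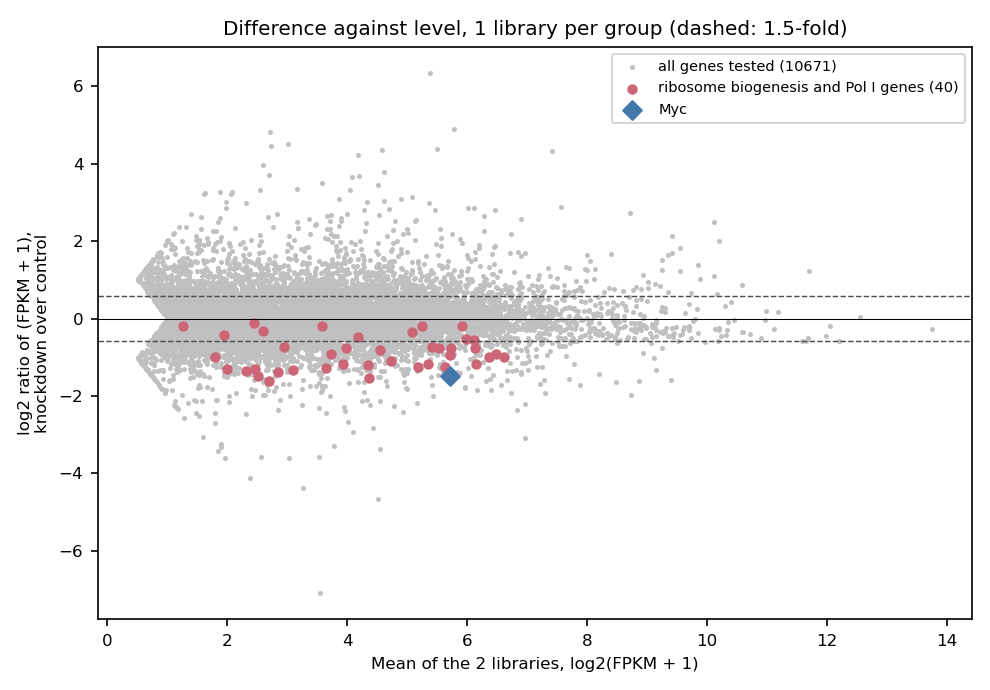
Log2 ratio of (FPKM + 1), knockdown over control, against the mean level of the 2 libraries for all 10671 genes tested (grey), the 40 genes (red) and Myc (diamond), with dashed lines at 1.5-fold. The red points lie below 0 over the whole range of their levels.

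E-box letters in the promoters of the 40 genes are printed here because MYC is known to bind genes of this pathway through that motif. Promoters of RefSeq genes in the GRCm38.p6 build, from 250 bases before to 50 bases after the start site, were given for 34 of the 40 genes. Fbl, Npm1, Rrp12, Bop1, Rrs1 and Gnl2 are named only. The letters CACGTG, which read the same on both strands, were present for 7 of the 34 genes (20.6%), against 8.09% of 27025 genes and 12.5% of 7452 protein-coding genes at 1 FPKM or more. Of 126 other genes of the pathway, listed further on, 23 (18.3%) held them, a share close to the 20.6% of the 34 members. Each match is printed on the gene's own strand, 5′ to 3′, with CACGTG in capitals and up to 12 bases on each side.
Rrn3, chr16:13780472-13780501, plus strand, motif 215 bases before the start site: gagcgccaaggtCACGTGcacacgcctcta
Rrn3, chr16:13780639-13780668, plus strand, motif 48 bases before the start site: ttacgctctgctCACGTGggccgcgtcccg
Nop2, chr6:125131811-125131840, plus strand, motif 60 bases before the start site: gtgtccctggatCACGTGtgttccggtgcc
Pes1, chr11:3963965-3963994, plus strand, motif from base 3 after the start site: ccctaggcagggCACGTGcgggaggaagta
Utp4, chr8:106893643-106893672, plus strand, motif from base 16 after the start site: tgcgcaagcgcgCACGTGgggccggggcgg
Wdr43, chr17:71616220-71616249, plus strand, motif from base 18 after the start site: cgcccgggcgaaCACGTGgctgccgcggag
Utp20, chr10:88826765-88826789, minus strand, motif from base 38 after the start site: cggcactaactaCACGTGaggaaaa
Mybbp1a, chr11:72441355-72441376, plus strand, motif from base 41 after the start site: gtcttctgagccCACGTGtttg

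The 7 genes with these letters had read ratios from 0.254 (Utp20) to 0.842 (Utp4), with a median of 0.511. The 27 genes without them in the window ran from 0.270 to 0.882, with a median of 0.479. Genes with and without the motif thus overlapped over nearly their whole range. A match is a run of letters and not a shown binding site.

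RNA polymerase I and its own factors had the smallest differences of the 6 role groups, with a median log2 ratio of -0.36 and 2 of 7 genes 1.5-fold lower. Those 2 encode the largest subunits, which form the catalytic centre. Polr1b (chromosome 2, 129100995 to 129126594, plus strand) was at 17.3 FPKM (1877 reads) in the control and 8.66 FPKM (942 reads) in the knockdown library, a read ratio of 0.485 (0.448 to 0.525). Polr1a (chromosome 6, 71909053 to 71984935, plus strand) went from 4313 to 2482 reads, a ratio of 0.557 (0.530 to 0.585). Both ratios lay clearly below those of the other subunits in the group. Polr1c, a subunit also used by RNA polymerase III, was at 63.7 FPKM in the control and 55.3 FPKM in the knockdown library, with a ratio of 0.840 (0.795 to 0.888). Polr1e, which encodes a subunit specific to RNA polymerase I, had 339 and 309 reads and a ratio of 0.882 (0.753 to 1.03), an interval that includes 1. It overlaps Fbxo10 on the other strand, whose read ratio was 1.95.

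The initiation factors stood between these values. Rrn3, which brings the polymerase to the promoter, was at 20.3 FPKM in the control and 14.3 FPKM in the knockdown library, a ratio of 0.682 (0.632 to 0.736). For Ubtf, which binds the ribosomal DNA along promoter and gene body, the levels were 37.4 and 29.0 FPKM and the ratio 0.749 (0.717 to 0.783). Taf1d, a subunit of the promoter selectivity factor, had 264 and 208 reads and a ratio of 0.762 (0.632 to 0.917). Its value is the least firm of the group, since 4931406C07Rik and Cep295 overlap it and a correction for GC content and length moved its log2 ratio from -0.20 to 0.03.

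The box C/D snoRNP proteins, which carry out ribose methylation of ribosomal RNA, were all 3 at least 1.5-fold lower. Fbl, the methyltransferase itself, was at 68.1 FPKM (5372 reads) in the control and 39.7 FPKM (3132 reads) in the knockdown library, a ratio of 0.564 (0.539 to 0.589). Its scaffold proteins had lower ratios, with intervals below that of Fbl. Nop56 (chromosome 2, 130274430 to 130279313, plus strand) was at 106 and 46.4 FPKM with a ratio of 0.425 (0.408 to 0.442), and Nop58 (chromosome 1, 59684971 to 59719044, plus strand) at 3.92 and 1.46 FPKM with a ratio of 0.362 (0.315 to 0.414). Nop58 shows what the +1 does to a low gene, since its log2 ratio is closer to 0 than that of Nop56 (-1.17), while its read ratio is further from 1. The order of Nop58 and Fbl depended on the processing. After the correction for GC content and length, the log2 ratios were -1.23 for Nop56, -0.86 for Fbl and -0.73 for Nop58.

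The box H/ACA snoRNP, which converts uridines of ribosomal RNA to pseudouridine, had all 4 core proteins and the snoRNP chaperone Nolc1 at least 1.5-fold lower, with a median log2 ratio of -1.17. Dkc1, the pseudouridine synthase (chromosome X, 75095854 to 75109777, plus strand), had 409 reads in the control and 119 in the knockdown library, a ratio of 0.281 (0.227 to 0.346). Gar1 was at 75.2 and 30.9 FPKM with a ratio of 0.398 (0.369 to 0.429). The remaining core proteins were closer to the control. Nhp2 went from 116 to 57.2 FPKM (ratio 0.479, 0.447 to 0.513) and Nop10 from 54.1 to 32.3 FPKM (ratio 0.577, 0.523 to 0.635). The intervals of Dkc1, Gar1, Nhp2 and Nop10 did not overlap one another, so the 4 partners of this complex differed from each other by more than counting error. Their order depended on the processing, since the correction for GC content and length gave log2 ratios of -1.47 for Gar1, -1.19 for Dkc1, -1.15 for Nhp2 and -0.66 for Nop10. Dkc1 overlaps Mpp1 (read ratio 1.67) and Nhp2 overlaps Rmnd5b (1.26), each on the other strand, and overlapping reads cannot be told apart here. Nolc1, which escorts both classes of snoRNP, was at 60.3 and 26.2 FPKM with a ratio of 0.420 (0.399 to 0.441).

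Of the 40 genes, 7 host annotated snoRNA genes, 27 loci in all, Taf1d with 8 and Nop56 with 5. These loci held 6 reads over both libraries, so the snoRNAs themselves could not be read from these data.

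The abundant nucleolar proteins and regulators were also all 4 at least 1.5-fold lower. Ncl, or nucleolin, which binds the precursor RNA and nucleolar chromatin (chromosome 1, 86344719 to 86359400, minus strand), was at 29.8 FPKM (5678 reads) in the control and 12.4 FPKM (2367 reads) in the knockdown library, a ratio of 0.403 (0.384 to 0.423). Npm1, or nucleophosmin, a histone chaperone of the outer nucleolus, went from 72.0 to 36.9 FPKM, a ratio of 0.496 (0.468 to 0.525). Its protein match is shared by 13 loci of the table. With the reads of these loci added up, as for all genes with shared matches, no gene of the 40 moved beyond its counting interval. Gnl3, or nucleostemin, a nucleolar GTPase abundant in stem and tumour cells, had 788 and 242 reads and a ratio of 0.297 (0.256 to 0.343). It overlaps Pbrm1, whose read ratio was 0.478. Mybbp1a, a nucleolar transcriptional regulator, had the most reads of the 40 genes, 14973 in the control and 7446 in the knockdown library, and the narrowest interval, 0.468 to 0.495 around a ratio of 0.481.

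The 10 listed genes of the small subunit processome and maturation had the lowest median log2 ratio of the role groups. Their median was -1.30, and 9 of 10 were at least 1.5-fold and 8 at least 2-fold lower. This rank holds for the listed genes only. Other small subunit genes, given further on, had a median of -0.56, close to the -0.55 of other large subunit genes. Utp20, a scaffold protein of the processome (chromosome 10, 88746607 to 88826804, minus strand), was at 10.4 FPKM (1980 reads) in the control and 2.72 FPKM (519 reads) in the knockdown library, a ratio of 0.254 (0.230 to 0.279). Heatr1 (chromosome 13, 12395027 to 12440289, plus strand) was at 8.52 and 2.38 FPKM with a ratio of 0.270 (0.239 to 0.305). Rrp12, which takes part in export of the precursor particles (chromosome 19, 41862852 to 41896153, minus strand), was at 34.1 and 11.1 FPKM with a ratio of 0.314 (0.291 to 0.339). Nop14 (0.368) and the RNA acetyltransferase gene Nat10 (0.406) followed. Rrp9, which binds the processome's snoRNA, was at 37.8 and 17.1 FPKM (0.438, 0.405 to 0.473), and Bysl, needed late in maturation, at 29.7 and 16.6 FPKM (0.540, 0.502 to 0.579).

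Within this group the subcomplex that contacts the start of the precursor RNA was split. Its members Heatr1, Wdr75 and Wdr43 had read ratios of 0.270, 0.315 and 0.338, whereas Utp4 was at 39.4 FPKM (2548 reads) in the control and 34.3 FPKM (2219 reads) in the knockdown library, a ratio of 0.842 (0.795 to 0.892). The highest upper bound of the first 3 genes was 0.387, far below the interval of Utp4. The other members of that subcomplex were again between, with Utp15 at 0.715 and Nol11 at 0.610. Wdr75, Wdr43, Utp15 and Nol11 were singled out here after their values were seen.

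The large subunit assembly factors were all lower, 6 of 11 by 1.5-fold or more, with a median log2 ratio of -0.74. Noc3l, which acts in early large subunit precursors (chromosome 19, 38788128 to 38819237, minus strand), had 567 and 188 reads and a ratio of 0.321 (0.270 to 0.379). Its relative Noc2l had a ratio of 0.570 (0.544 to 0.598), a separate interval. Rrs1, which helps to bring the small ribosomal RNA made by RNA polymerase III into the particle (chromosome 1, 9545408 to 9547455, plus strand), was at 54.8 and 22.7 FPKM with a ratio of 0.400 (0.369 to 0.433). Nop2, an RNA cytosine methyltransferase and proliferation antigen, was at 122 FPKM in the control and 64.4 FPKM in the knockdown library, a ratio of 0.511 (0.490 to 0.533). Rrp1b (0.536) and Nop16 (0.569) lay close to it.

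Pes1, Bop1 and Wdr12 form a stable complex needed to process the large subunit RNA, and their ratios were alike. Pes1 went from 83.1 to 56.3 FPKM (0.655, 0.626 to 0.686), Bop1 from 74.6 to 51.6 FPKM (0.669, 0.638 to 0.702) and Wdr12 from 3.45 to 2.31 FPKM (0.649, 0.579 to 0.726). The 3 intervals overlapped. Bop1 shares its locus with Mroh1 (read ratio 1.17) and Wdr12 with Carf (0.503), and such reads cannot be told apart here. The likeness did not hold after the correction for GC content and gene model length, added after seeing the data, which gave log2 ratios of -0.60 for Pes1, -0.76 for Bop1 and -0.13 for Wdr12. Pes1 and Bop1 were also named after their values were seen. Highest in the group were Gnl2, a GTPase of late nuclear assembly, with a ratio of 0.739 (0.634 to 0.861), and Ebna1bp2, at 11.8 and 10.1 FPKM with a ratio of 0.833 (0.750 to 0.924).

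**Figure D3:**
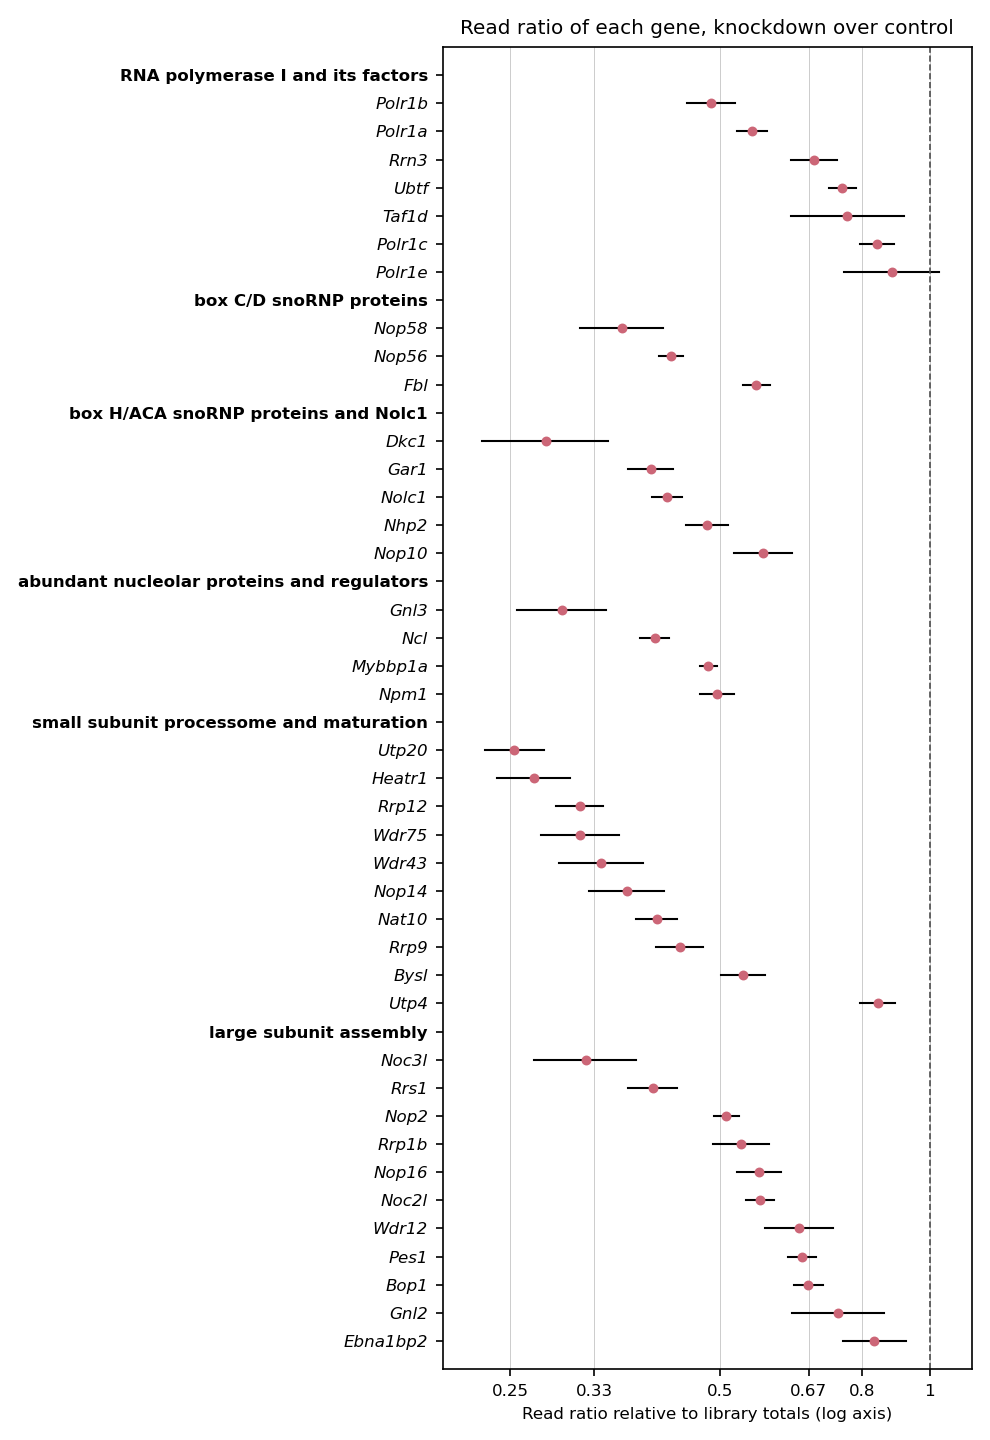
Read ratio, knockdown over control, relative to library totals (log axis), with 95% exact counting intervals as bars, for the 40 genes by role. All intervals but that of Polr1e lie left of the dashed line at 1. Utp4 stands apart from the other small subunit genes at 0.842, and Pes1, Bop1 and Wdr12 lie between 0.649 and 0.669, before any correction for GC content and length.

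Since the counting strand is not given in the sources used here, reads of overlapping genes cannot be told apart. Of the 40 genes, 12 overlap another gene with at least 10 reads. The overlapping genes had read ratios from 0.363 (Scx, 24 and 9 reads, over Bop1) to 2.71 (Ccnd3, over Bysl). Mroh1, also over Bop1, had 6376 and 7714 reads (1.17), more than Bop1 itself. Spns2 over Mybbp1a had a ratio of 1.99 and Parp3 over Rrp9 one of 2.42. Ratios were 0.833 for Idh3b over Nop56, 0.695 for Lgals8 over Heatr1 and 0.503 for Carf over Wdr12. Over Taf1d, 4931406C07Rik had 0.915 and Cep295 1.08. Among the 28 genes with no such overlap, 21 were at least 1.5-fold lower and the median log2 ratio was -0.91.

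The other genes of the pathway were 149 in 5 lists. Of the 145 tested, 53 (36.6%) were at least 1.5-fold lower, against 14.3% of all genes tested. At least 1.5-fold higher were 0, against 16.9% of all genes, and the median log2 ratio was -0.41. The difference between the 40 and these genes was not tested. Other small subunit genes had 21 of 48 at least 1.5-fold lower and a median of -0.56. They ran from Ltv1, a late small subunit factor with 618 and 110 reads (log2 ratio -2.11, read ratio 0.172), to Tsr3, an RNA-modifying enzyme (0.36, read ratio 1.25). Other large subunit genes had 22 of 48 tested at least 1.5-fold lower and a median of -0.55, from Pak1ip1 (-1.52, read ratio 0.305) to Efl1, a GTPase of the last cytoplasmic steps (0.45, read ratio 1.40). Among 11 snoRNP assembly factors 4 were lower by that fold, from Tcof1, or treacle (-1.31, read ratio 0.379), to Znhit3 (0.35, read ratio 1.28). Among 22 tested genes of the RNA exosome and RNase MRP, which trim and cut the precursor, 5 (22.7%) were lower by that fold. They ran from Exosc5 (-1.06) to Exosc10 (0.45).

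Other subunits and factors of RNA polymerase I had 1 of 16 (6.25%) at least 1.5-fold lower, under the 14.3% of all genes. Their median log2 ratio was 0.07. The +1 damps genes at low levels, and by read ratio 5 of 16 were lower by that fold, against 21.1% of all genes. Polr2h, a subunit shared by the nuclear RNA polymerases, had the lowest log2 ratio (-0.90, read ratio 0.503). By read ratio Twistnb, a subunit of RNA polymerase I with 117 and 53 reads, was lower still (0.438, 0.311 to 0.611). Polr2k, also shared, was highest by either measure (log2 ratio 0.37, read ratio 1.27). The promoter selectivity factor was lower in its own subunits, with read ratios of 0.594 for Taf1a (83 and 51 reads), 0.588 for Taf1b (120 and 73 reads) and 0.631 for Taf1c (512 and 334 reads), while its subunit Tbp, which also serves other polymerases, had 531 and 585 reads (1.07, 0.946 to 1.20). These 4 and Twistnb were singled out after their values were seen.

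**Figure D4:**
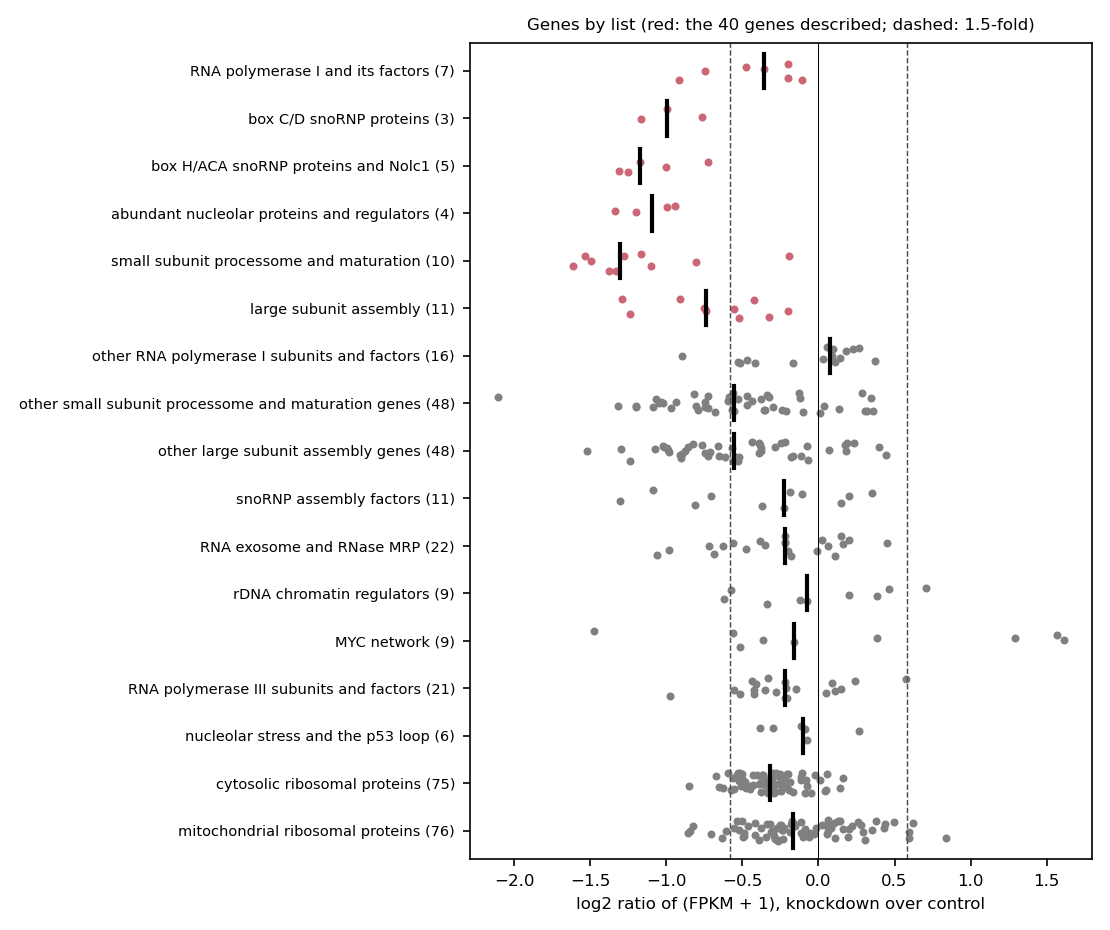
Log2 ratio of (FPKM + 1), knockdown over control, for each gene at 1 FPKM or more, by list, with the number of genes in parentheses. Thick bars are medians, red points are the 40 genes and dashed lines mark 1.5-fold. The medians of 5 of the 6 red groups lie left of the lower dashed line, that of the RNA polymerase I group at -0.36 does not, and cytosolic ribosomal proteins are centred at -0.32.

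Several lists next to the pathway were read in the same way, beside the 14.3% of all genes 1.5-fold lower and the 16.9% higher. RNA polymerase III genes had 1 of 21 tested (4.76%) at least 1.5-fold lower by log2 ratio, under that share, and a median of -0.22, from Polr3b (-0.98) to Polr3gl (0.57). By read ratio, which has no +1, 4 of the 21 were lower by that fold, against 21.1% of all genes. Cytosolic ribosomal proteins, taken by symbols of Rpl or Rps with a number, had 5 of 75 (6.67%) at least 1.5-fold lower, also under the 14.3% of all genes. This takes in relatives such as Rpl7l1 and Rps27l. It leaves out Rplp0 (-0.49), Rplp1 (-0.59, past 1.5-fold), Rplp2 (-0.34), Rpsa (-0.42) and Fau (-0.26). Of the 75, 69 were below 0, against 50% of all genes, with a median of -0.32. Mitochondrial ribosomal proteins had 6 of 76 (7.89%) lower and 4 higher by that fold, both under the shares of all genes, with a median of -0.17. Regulators of ribosomal DNA chromatin had 1 of 9 tested lower and 1 higher, from Ctcf (-0.62) to Sirt7, a deacetylase that activates RNA polymerase I (0.70). In the p53 loop that responds to nucleolar stress none of 6 tested genes passed 1.5-fold by log2 ratio and 1 did by read ratio. They ran from Mdm4 (-0.39; 411 and 249 reads, a read ratio of 0.586) to Mdm2 (0.27), Cdkn1a was at 225 and 211 FPKM, and Cdkn2a had 0 reads in both libraries.

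The MYC network, 9 of whose 11 genes were tested, had members at least 2-fold away from the control in both directions. Myc (chromosome 15) was at 86.5 FPKM (4400 reads) in the control and 30.4 FPKM (1547 reads) in the knockdown library. Its log2 ratio was -1.48, with 0.340 times the control reads (0.321 to 0.360). Mycn and Mycl had at most 2 reads in either library. Genes of MAX-binding repressors, which oppose MYC, were split, 3 higher and 3 lower. Mxd3 went from 9.92 to 32.4 FPKM (log2 ratio 1.61), Mxi1 from 7.92 to 25.5 FPKM (1.57) and Mxd1 from 1.59 to 5.34 FPKM (1.29). Mxd4, of the same family, was at 10.8 and 6.99 FPKM (-0.56), Mga had 395 and 190 reads (-0.52), Mnt had 1755 and 1561 reads (-0.16), and Max itself was at 18.1 and 13.8 FPKM (-0.37). Whether the levels of Myc or of these repressors have a part in the lower levels of the 40 genes was not tested.

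**Figure D5:**
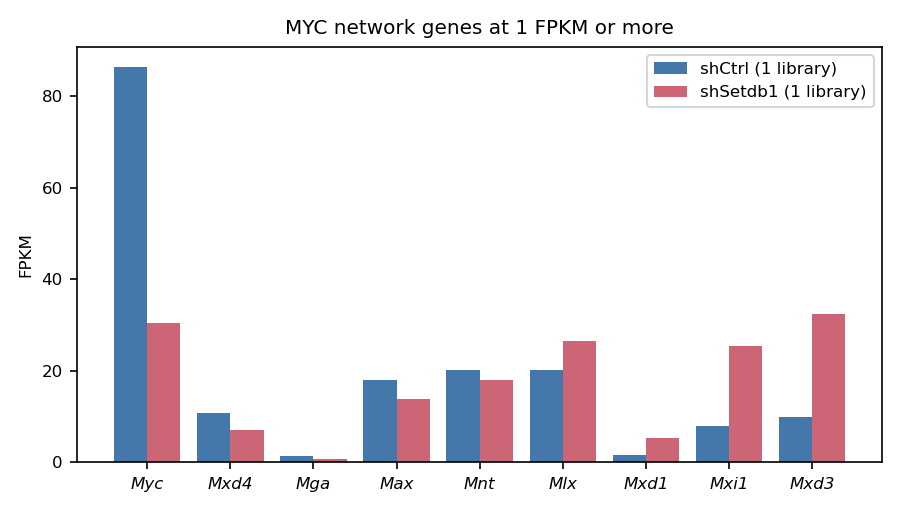
FPKM of the 9 MYC network genes at 1 FPKM or more in the control library (blue) and the knockdown library (red), 1 library each, ordered by log2 ratio. Myc goes from 86.5 to 30.4 FPKM, whereas Mxd1, Mxi1 and Mxd3 are higher in the knockdown library.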

How the data were processed

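The authors deposited 1 table of FPKM values for 54680 loci, per the file headers, with 1 column for each of the 2 libraries. Column names are the library names that the labels give. CASAVA, HISAT2, featureCounts 1.5.0-p3 and the GRCm38 build are named in the submitters' processing notes. Strand and the handling of reads with several matches are not given in the sources used here. FPKM times gene model length came out as whole multiples of 1 common step for 100% of values above 0 in both libraries (within 0.01 of a whole number), which gave the reads. A single depth, 18731117, had been used for both columns, so deposited FPKM values retain the difference in totals (1.03-fold). Coordinates of 38 of the 40 genes were identical to GENCODE M21 on GRCm38, and those printed are the table's.

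Log2 ratios used a pseudocount of 1, and genes entered when either library reached 1 FPKM. Nothing was tested, since each condition had 1 library. A fold of 1.5 stands in for a call, and percentages of all genes give the background. The 40 genes, the lists, the fold and the alternatives were chosen with earlier results of these data known. The rule for named genes took Setdb1, Myc, the genes of each role group (the 3 lowest and 3 highest where it had over 7), the 3 highest levels, and the extremes of each other list with 5 or more genes tested. The text also gives the other members. The ribosomal protein lists, the correction for GC content and length (lowess with a span of 0.3, GC of the longest GENCODE M21 transcript), the subsets without overlaps or shared protein matches and intervals on undivided reads were added after seeing the data. Calculations were tested on simulated data. Software was matplotlib 3.10.9, statsmodels 0.14.6, scipy 1.17.1, pandas 2.3.3, numpy 2.4.6 and Python 3.11.15.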

Additional observations from a re-analysis of the deposited data

How the results depend on the processing

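The median log2 ratio of the 40 genes stayed between -1.01 and -0.91 over 11 alternatives, and 0 of them was at least 1.5-fold higher under any of the 12 run. The count at least 1.5-fold lower was 17 at a 2-fold threshold, where all genes gave 518 lower and 727 higher, and 16 of the 24 genes whose protein match has 1 locus, of which 23 had a counting interval below 1. Fewer genes enter or pass under these settings by construction, as with the 961 genes 1.5-fold lower among those at 5 FPKM or more. Other settings gave 21 (the 28 genes without overlaps) to 31. Of 280 alternative values of single members, 1 was above 0, that of Taf1d after the correction for GC content and gene model length (0.0300). The cause was not tested. With Setdb1 and Myc there were 294 such values, and 47 moved by more than counting error without changing sign. Of these, 21 came with the correction for GC content and length and 15 with scaling by the upper quartile. The pseudocount does not enter the counting intervals. No paired analysis was possible because there was only 1 library of each kind, and none could be left out. Depth limits what can be said of Taf1d, Polr1e and Gnl2, whose 208 to 395 reads per library gave wide intervals near 1.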

Other observations

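Factors of the last, largely cytoplasmic steps of large subunit maturation, picked after their values were seen, had mixed ratios. Eif6, which keeps the subunits apart until those steps, was at 121 FPKM in the control and 137 FPKM in the knockdown library, a read ratio of 1.10 (1.06 to 1.14). Efl1, the GTPase that helps to remove Eif6, had a ratio of 1.40 (1.24 to 1.57), its cofactor Sbds one of 0.919 (0.856 to 0.987), and Zfp622 one of 1.11 (1.05 to 1.16). The GTPase Lsg1 (0.851, 0.778 to 0.931), Rsl24d1 (0.641, 0.573 to 0.717) and the export adaptor Nmd3 (0.598, 0.497 to 0.718) lay within the range of the 40 genes. Since these genes were picked, the values cannot show whether late and early factors differ.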
